A study of Mus musculus with 4 samples.

Results

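Collagen genes were followed through single-cell RNA libraries of mouse gingiva, the gum tissue that surrounds the teeth. They were found as all gene symbols that begin with Col, a digit, an a and a further digit, with Col17a1 left out. The rule found 44 of 32245 symbols. Of these, 43 encode collagen chains, and Col4a3bp, which encodes a ceramide transfer protein, was set apart. At least 1 UMI (unique molecular identifier, which counts 1 captured RNA molecule) was found for 42 of the 43 chains, and 28 had at least 50 UMIs.

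The study compared 4 groups: healthy gingiva, gingiva after metformin treatment, gingiva with disease, and gingiva with disease given metformin. The drug lowers blood glucose, and the series asks how it acts on the gingiva in preventing periodontal disease. Maxillary gingiva was cut out, digested with collagenase type II and DNase, strained and loaded on the 10x Genomics platform, and each group was 1 library. Strain, age and sex of the mice, how many were pooled, how disease was brought about, and the dose and route of metformin are not given in the sources used here. Every comparison therefore sets 1 library against 1 other, has no replicate check and carries no test. The 95% intervals cover counting error alone, and they are too narrow where a few barcodes hold most of a gene's UMIs.

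Collagens are proteins of 3 chains wound into a triple helix. Fibrillar collagens, mainly types I and III, form the tensile fibres of connective tissue and are made by fibroblasts. Type IV collagen forms the sheet of basement membranes under epithelium and around vessels, and type VII collagen anchors that sheet to the tissue below. In the gingiva these fibres attach the gum to tooth and bone, and their loss is a hallmark of periodontal disease.

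Filtering left 7129 cells, with 1307, 2476, 1692 and 1654 in the healthy, metformin, disease, and disease plus metformin libraries. Totals ran from 10863807 to 19490708 UMIs per library, medians from 1715 to 1951 UMIs per cell, and 8 barcodes occurred in more than 1 library. The doublet caller marked 5 of 7134 cells (0.0701%), too few for it to have worked, so doublets remain. Cells were clustered with no collagen among the genes used. All 14 fibroblast markers had at least 1 UMI in the fibroblast-like cells and all 12 blood endothelial markers in the endothelial-like cells of every library, as had all 17 keratinocyte markers in keratinocyte-like cells. Gland-like cells had 20 or 21 of 22 gland markers. The same lists named the clusters, so this is no separate check of the names. In the fibroblast-like cells of the metformin library, 15 of 17 keratinocyte markers also had a UMI, summing to 1286 CPM against 45381 CPM for fibroblast markers. Gland-like cells, which hold few collagen UMIs, held 48.0%, 31.0%, 29.7% and 57.8% of all UMIs in the healthy, metformin, disease, and disease plus metformin libraries. How far this dilutes the values over all cells was not tested, beyond the rescaling in the closing section.

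Fibrillar chains were the most abundant collagens in the healthy, metformin and disease libraries, and were far lower in the disease plus metformin library. Summed over 11 fibrillar genes and all kept cells, they stood at 162.5 UMIs per 1000000 UMIs of the library (CPM) in the healthy library. The sum was 286 CPM in the metformin, 395 CPM in the disease and 48.1 CPM in the disease plus metformin library. Disease thus lay above healthy gingiva by a log2 ratio of 1.28 (95% interval 1.20 to 1.36). Disease plus metformin lay below disease by a log2 ratio of -3.04 (-3.17 to -2.92), and metformin lay above healthy by 0.82 (0.74 to 0.89). The disease library was also the highest in the other 6 collagen families in the plot of families by library. Of the families not plotted, membrane-spanning collagens stood at 7.92, 9.49, 8.59 and 5.09 CPM in the healthy, metformin, disease, and disease plus metformin libraries, highest with metformin. Col26a1 and Col28a1 together stood at 0.92, 1.18, 5.99 and 1.17 CPM. Basement membrane chains summed to 80.4, 93.8, 164 and 84.2 CPM in the healthy, metformin, disease, and disease plus metformin libraries. Their log2 ratios were 1.02 for disease over healthy, -0.96 for disease plus metformin over disease, and 0.22 for metformin over healthy.

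**Figure D1:**
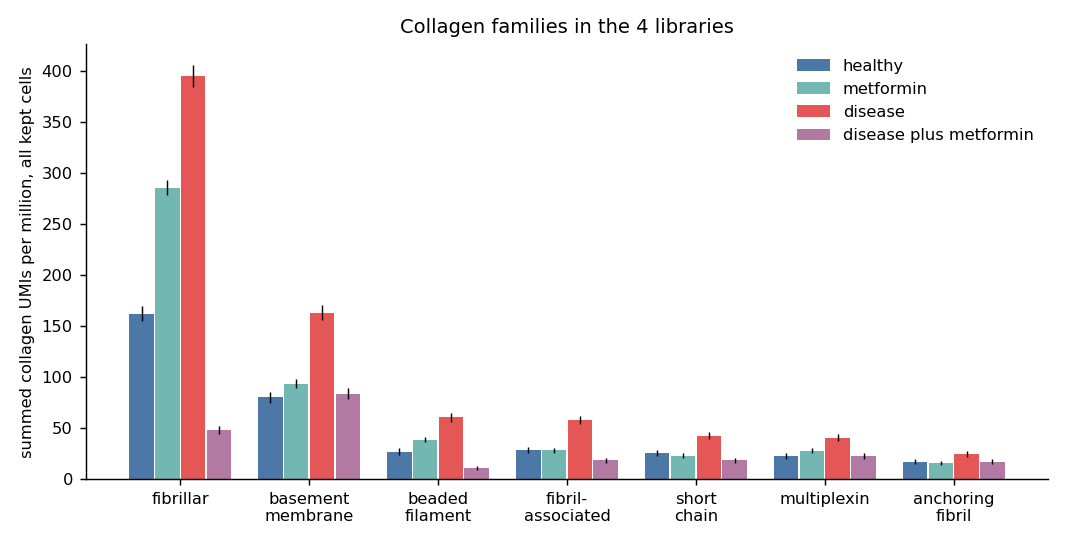
Summed CPM of 7 collagen families over all kept cells; each bar is 1 library and each line its exact Poisson 95% interval. Fibrillar collagen reaches 395 CPM in the disease library and 48.1 CPM in the disease plus metformin library, while basement membrane collagen spans 80.4 to 164 CPM.

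Gene by gene, 25 of 29 measured collagens were at least 1.5-fold higher in disease than in healthy gingiva, where 15.3% of all measured genes were. Measured here means at least 20 UMIs over both libraries. Only Col9a2, with 20, 2, 6 and 0 UMIs in the healthy, metformin, disease, and disease plus metformin libraries, was at least 1.5-fold lower in disease, against 6.31% of all genes. In disease plus metformin, 26 of 31 measured collagens were at least 1.5-fold lower than in disease, where 24.7% of all genes were. The 1 collagen above disease by that margin was Col4a4, a chain of the kidney-type basement membrane network, with 8 UMIs in disease and 15 in disease plus metformin, against 8.38% of all genes. With metformin in healthy gingiva, 13 of 30 measured collagens were at least 1.5-fold higher (9.59% of all genes), and Col20a1 and Col9a2 at least 1.5-fold lower (11.0% of all genes). The median log2 ratios of the measured collagens were 1.12, -1.92 and 0.37 in these comparisons, beside 0.15, -0.24 and -0.06 over all measured genes. The disease library enters both disease comparisons, and the healthy library enters both comparisons with healthy gingiva, so their counts are not independent of each other.

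Over all kept cells, the median ratios of the fibroblast, keratinocyte and endothelial sources had the same direction in the disease comparisons, and their size differed. Genes with their largest share in gland-like cells did not pass 1.5-fold there. Col20a1 stood at -0.07 in disease and 0.06 in disease plus metformin, and Col11a2 at -0.45 in the latter. All these ratios also depend on how much of a library each source makes up, and are not levels within the source cells. Genes of one source share its cells, so they are not separate observations. Of all measured genes, 15.3% were at least 1.5-fold higher and 6.31% that much lower in disease. In disease plus metformin 24.7% were that much lower and 8.38% higher than in disease, and with metformin alone 9.59% were higher. The 14 measured collagens with their largest share in fibroblast-like cells were all at least 1.5-fold higher in disease (median log2 ratio 1.51) and all at least 1.5-fold lower in disease plus metformin (median -2.76), and 10 of them were that much higher with metformin alone. Of the collagens with their largest share in keratinocyte-like cells, 6 of 8 measured were that much higher in disease (median 0.71) and 7 of 8 that much lower in disease plus metformin (median -1.15). Col4a1 and Col4a2, with their largest share in endothelial-like cells, were both at least 1.5-fold higher in disease (median 1.02), and 2 of 3 endothelial-source collagens were that much lower in disease plus metformin (median -0.82). Col28a1, the 1 measured gene with its largest share in Schwann-like cells, stood at 3.18 and -2.32. Of 3 genes with their largest share in unnamed clusters, 2 were higher and 1 was lower in disease, and 2 were lower and 1 was higher in disease plus metformin. With metformin alone, 9 collagens with their largest share in keratinocyte-like cells were measured. Of them 1, Col19a1 (3 and 29 UMIs in the healthy and metformin libraries), was at least 1.5-fold higher, beside 9.59% of all genes.

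**Figure D2:**
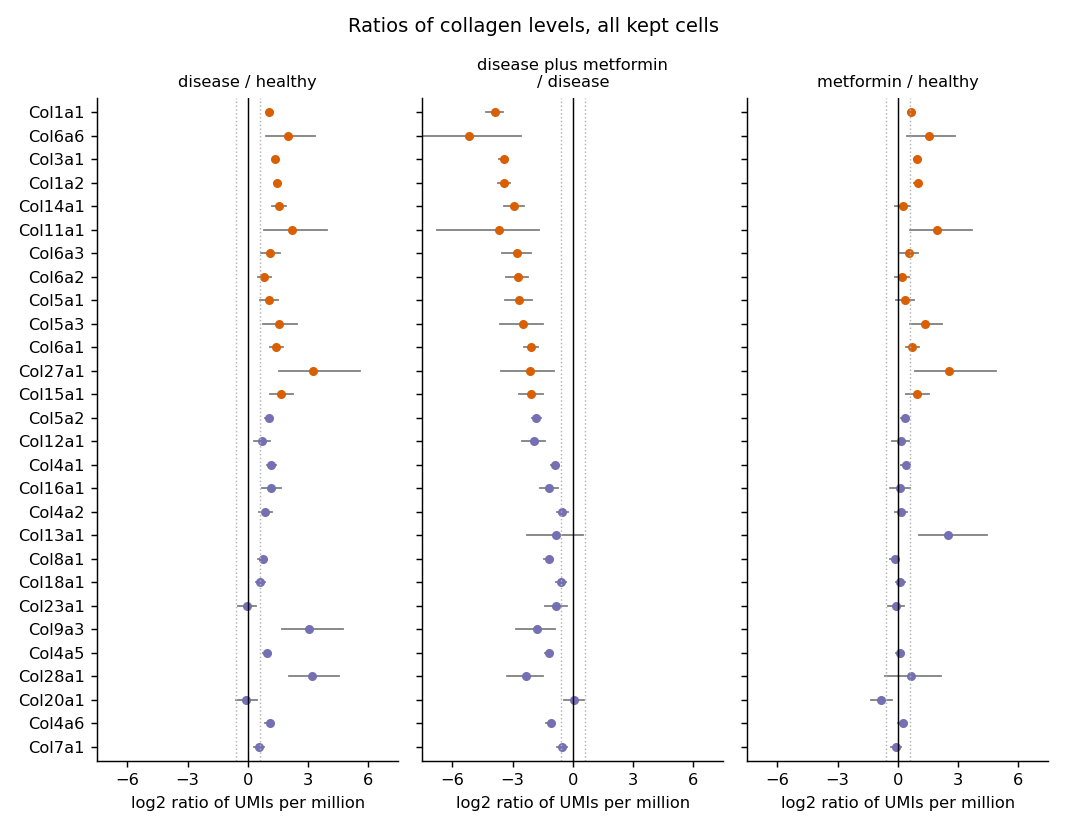
Log2 ratios of CPM over all kept cells for the collagens with at least 50 UMIs, one panel per comparison; points are ratios, lines 95% counting intervals clipped at the axis, dotted lines mark 1.5-fold, and orange points are genes with their largest share in fibroblast-like cells. In the middle panel the orange genes lie from -5.16 to -2.07, and Col20a1, held mostly by gland-like cells, lies at 0.06.

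Type I collagen is a trimer of 2 Col1a1 chains and 1 Col1a2 chain and forms the thick fibres of the gum. Col1a1 stood at 28.7, 45.8, 60.4 and 4.09 CPM over all cells of the healthy, metformin, disease, and disease plus metformin libraries. Col1a2 stood at 33.6, 66.3, 91.8 and 8.59 CPM. Both were highest in disease and lowest in disease plus metformin, and no interval of one library met that of another. Col3a1, which forms the thinner type III fibres, stood at 64.1, 122.8, 163.5 and 14.9 CPM. The log2 ratios of disease plus metformin over disease were -3.88 for Col1a1, -3.42 for Col1a2 and -3.45 for Col3a1. Metformin over healthy gave 0.67, 0.98 and 0.94, and the Col1a1 value turned to -0.14 when every cell was weighted equally.

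Most UMIs of these genes lay in fibroblast-like cells. The fibroblast-like class held 95.4% of all Col1a1 UMIs (94.4% to 96.3%, exact Clopper-Pearson), 92.8% of Col1a2 and 92.8% of Col3a1, from 113 cells or 1.58% of all cells. Other classes also had fibrillar UMIs, found without thinning in 44 of 46 Schwann-like and 35 of 48 pericyte-like cells. Their summed fibrillar levels were 2556 and 972 CPM, against 12438.5 CPM in fibroblast-like cells. With each cell thinned to 1000 UMIs, 73.9% of fibroblast-like cells held a Col1a1 UMI, against 0.16% of keratinocyte-like cells and 0 of 139 endothelial-like cells. Without thinning the shares were 92.9%, 0.60% and 0.85%, at median depths of 7501, 1573 and 1412 UMIs. Thinning left out 2 fibroblast-like, 1238 keratinocyte-like and 96 endothelial-like cells that were too shallow. Whether the Col1a1 UMIs in keratinocyte-like and endothelial-like cells were made by those cells was not tested, so their share is no measured background for other genes.

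**Figure D3:**
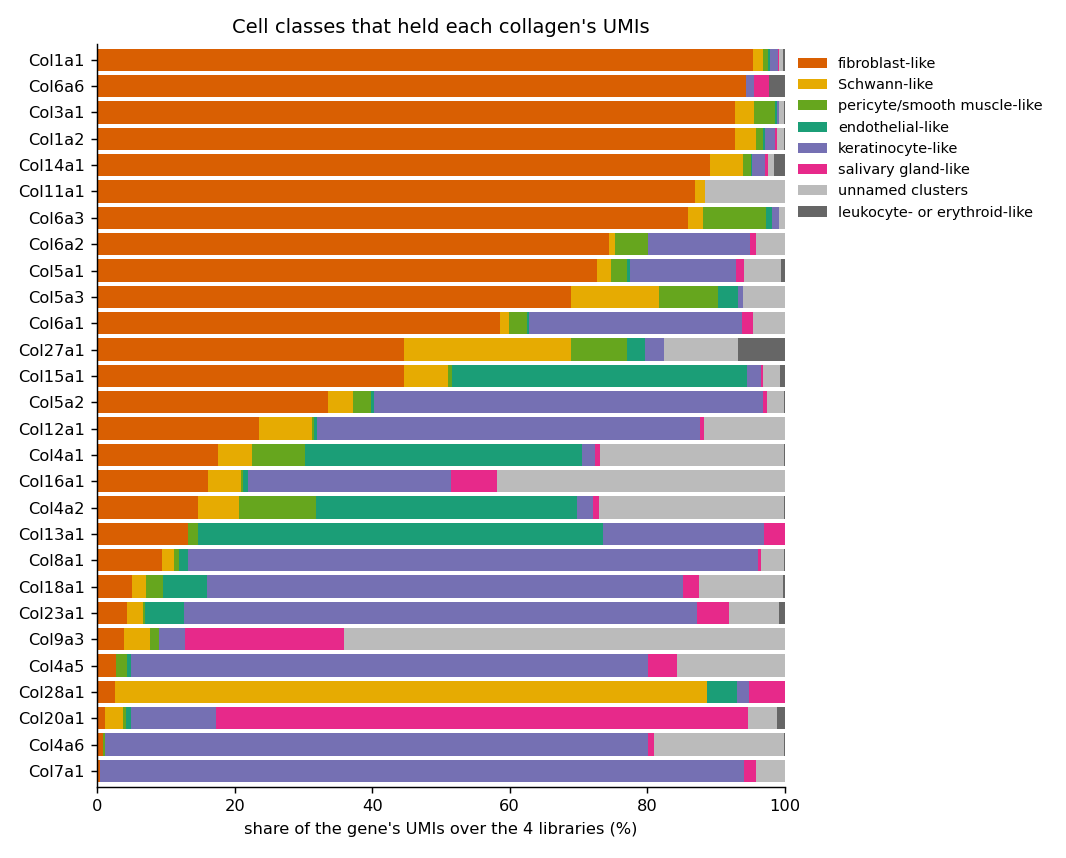
Share of each collagen's UMIs, summed over the 4 libraries, that fell in each cell class, for the genes with at least 50 UMIs. The bars run from Col1a1, with 95.4% in fibroblast-like cells, to Col7a1, with 93.7% in keratinocyte-like cells, and Col28a1 stands out with 86.1% in Schwann-like cells.

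The number of fibroblast-like cells differed between libraries in the order of the fibrillar levels. There were 15 of 1307 cells (1.15%, 0.64% to 1.89%) in the healthy library and 41 of 2476 (1.66%, 1.19% to 2.24%) in the metformin library. The disease library held 49 of 1692 (2.90%, 2.15% to 3.81%) and the disease plus metformin library 8 of 1654 (0.48%, 0.21% to 0.95%). The 14 fibroblast markers over all cells, none of them a collagen, summed to 949, 1722, 1980 and 641 CPM in the same order of libraries. Dcn alone made up 485, 895.5, 925 and 343.5 CPM of these sums. Only 37.1% of its UMIs lay in fibroblast-like cells, so the sum does not follow that class alone. Within the class, fibrillar collagen stood at 14008 CPM in healthy, 12640.4 in metformin, 12890.3 in disease and 5580 in disease plus metformin cells. The first 3 values lie within a factor of 1.5 of each other, while the fourth rests on 8 cells, 1 of which held 35.6% of the fibrillar UMIs. Because 2 of the libraries hold fewer than 20 such cells, no ratio within the class was formed. Whether fewer fibroblasts were present in the tissue or fewer were recovered after digestion cannot be told apart.

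Other ways of picking these cells also placed the disease plus metformin library lowest, but they are no separate evidence of a low level per fibroblast. Its fibrillar UMIs were 312 in the 8 clustered cells, 301 in 32 cells picked by markers and 314 in 11 cells of the unsplit cluster. The larger sets thus held about as many fibrillar UMIs over more cells. How far added cells of other types lowered the level was not tested. With cells picked one by one from their markers, without clusters, there were 36, 78, 79 and 32 cells in the healthy, metformin, disease, and disease plus metformin libraries. Their fibrillar level was 11116, 8854, 11546 and 3173 CPM, a log2 ratio of 0.05 (-0.03 to 0.14) for disease over healthy and of -1.86 (-2.04 to -1.69) for disease plus metformin over disease. Metformin over healthy was -0.33 (-0.42 to -0.24) by this way. Of these ways, leaving the cluster whole moved the healthy value most. If the cluster was not split and 18 cells led by S100a5, Gng13 and Cyp2a5 and 11 led by Ccer2, Pcdh9 and Nrxn3 stayed in it, the healthy level was 5502 CPM over 24 cells, and disease over healthy came to 1.09 (1.00 to 1.18). Metformin over healthy then was 0.91 (0.82 to 1.00), so its direction within these cells turned with how they were picked. Those cells had been set apart because other marker lists, or too few markers, matched them best. Their Col3a1 stood at 154 CPM in the first set and at 0 UMIs in the second.

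Single cells varied more than libraries did. In healthy fibroblast-like cells fibrillar collagen ran from 3269 to 59128 CPM with a median of 13448. It ran from 0 to 45170 CPM (median 10437) with metformin and from 980 to 67311 CPM (median 9127) in disease. The 8 cells of the disease plus metformin library spanned 1086 to 9631 CPM with a median of 4705. The lowest of them lay below every healthy cell, and all lay within the ranges of the metformin and disease libraries. The richest 20% of the cells held 50.02% of all fibrillar UMIs of the class. The median cell held UMIs of 12 collagen genes, and the richest cell of 20.

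**Figure D4:**
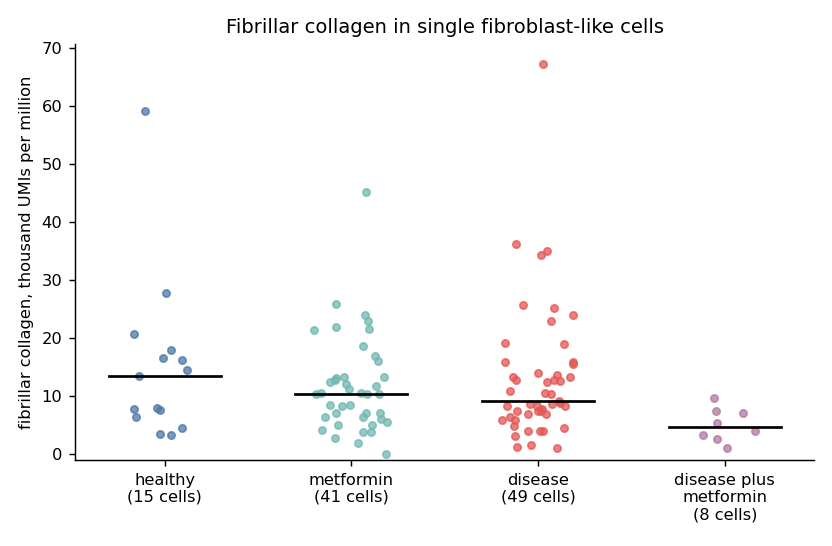
Fibrillar collagen in each fibroblast-like cell, in units of 1000 CPM of that cell, by library; each point is 1 cell and each black line the median. The 8 cells of the disease plus metformin library reach 9631 CPM at most, and the other libraries reach 45170 CPM and above.

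The class fell into 5 parts, which differed in the level of some collagens. The part led by Aspn and Tnn, genes of ligament and tendon matrix, had 11 cells and the most fibrillar collagen, at 20860.1 CPM against 9803 to 12486 CPM in the other parts. It had 0 cells in the disease plus metformin library and 1 to 6 in the others. Its Col12a1, which coats fibrils under tension, stood at 745 CPM against 31.7 to 45.8 elsewhere in the class. Col11a1, Col16a1 and Col18a1 were also highest there, at 276.5, 337 and 361 CPM, with 60.9%, 60.7% and 33.3% of those UMIs in 1 cell. Col14a1, another fibril-associated collagen, showed the reverse, with 72.1 CPM in this part and 1008 CPM in the part led by Fbn1 and Mfap5. Col8a1 reached 355 CPM in the part led by Apod and Ccl11 and 394 CPM in the part led by Igfbp6 and Mmp3, with 54.4% and 81.4% of its UMIs in 1 cell.

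Type V collagen starts fibrils and sets their width, and 1 of its 3 genes, Col5a2, had another main source than the rest. Col5a1 stood at 5.98, 7.59, 12.3 and 1.92 CPM over all cells of the healthy, metformin, disease, and disease plus metformin libraries, and fibroblast-like cells held 72.7% of it. Col5a3 stood at 1.56, 4.00, 4.65 and 0.83 CPM with 68.9% in that class. Col5a2, at 27.1, 34.7, 55.6 and 15.8 CPM, was held mostly by keratinocyte-like cells, which had 56.5% of its UMIs, and fibroblast-like cells had 33.6%. The ratio of Col5a2 to Col5a1 UMIs was 2.20 (1.91 to 2.54) in fibroblast-like cells and 17.6 (13.5 to 23.2) in keratinocyte-like cells. These are ratios of molecule counts and are not scaled for gene length.

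The remaining fibrillar genes were scarce. Col11a1, a partner of type II and type V collagen, had 5, 35, 27 and 2 UMIs in the healthy, metformin, disease, and disease plus metformin libraries, with 40.0% to 100% in 1 barcode. Col27a1, a fibrillar gene of cartilage and growing bone, had 3, 31, 33 and 7 UMIs. Col24a1 had 4 to 16 UMIs per library, Col11a2 4 to 13, and Col2a1, the cartilage collagen, 0 to 2.

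The pairs of basement membrane chains differed in the class with the largest share of their UMIs. Col4a1 and Col4a2, which join as the trimer found in nearly all basement membranes, had their largest share in endothelial-like cells (40.3% and 38.1% of their UMIs), followed by an unnamed cluster, fibroblast-like and pericyte-like cells. Col4a5 and Col4a6, which join in the network under epithelium and smooth muscle, were held to 75.2% and 79.1% by keratinocyte-like cells. Endothelial-like cells had 0 Col4a6 UMIs in 617507, which allows up to 3, and keratinocyte-like cells had 30 of 1582 Col4a1 UMIs, 66.7% of them in 1 barcode. Within the class with the largest share of a pair, the ratio of its chains had overlapping intervals in the 4 libraries. The Col4a2 to Col4a1 ratio was 0.57, 0.54, 0.44 and 0.51 in the endothelial-like cells of the healthy, metformin, disease, and disease plus metformin libraries. The Col4a6 to Col4a5 ratio was 0.81, 0.97, 0.94 and 1.08 in keratinocyte-like cells. Between classes the ratios differed more, with Col4a2 to Col4a1 at 0.45 in fibroblast-like and 0.76 in pericyte-like cells and Col4a6 to Col4a5 at 0.26 in fibroblast-like and 0.17 in pericyte-like cells.

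Over all cells, Col4a1 stood at 19.9, 26.0, 44.8 and 24.3 CPM and Col4a2 at 11.9, 13.3, 21.8 and 15.1 CPM in the healthy, metformin, disease, and disease plus metformin libraries. Both were highest in disease. The share of endothelial-like cells was also highest in disease, at 3.06%, 2.38%, 6.32% and 1.75% of cells. Within those cells, summed basement membrane collagen stood at 1114, 1795, 1388 and 2203 CPM in 40, 59, 107 and 29 cells. The log2 ratios were 0.32 (0.02 to 0.63) for disease over healthy, 0.67 (0.39 to 0.94) for disease plus metformin over disease and 0.69 (0.39 to 1.00) for metformin over healthy. All 3 rest on single barcodes. Without the richest barcode of each library the ratios were -0.57, 0.27 and 0.15, and that barcode held 40.9% of the endothelial basement membrane UMIs in disease and 57.5% in disease plus metformin. Lymphatic endothelial markers in the class summed to 6032, 2513, 1969 and 603 CPM in the same order, and their part in these values was tested only by leaving out the marked cells, as given in the closing section.

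Other collagens known from vessels had various sources. Col15a1, a collagen of the outer face of basement membranes, stood at 3.22, 6.21, 10.2 and 2.42 CPM over all cells, with 43.0% in endothelial-like and 44.6% in fibroblast-like cells. Col13a1, a membrane-spanning collagen, had 4, 41, 15 and 8 UMIs, 58.8% of them in endothelial-like cells, and in disease plus metformin 6 of the 8 lay in 1 barcode. Col18a1, the precursor of endostatin, stood at 20.0, 21.9, 30.8 and 20.5 CPM over all cells. Its level was 133 CPM in endothelial-like and 35.3 CPM in keratinocyte-like cells, but the larger keratinocyte-like class held 69.2% of its UMIs. Pericyte-like and smooth muscle-like cells, 48 in all, had Col4a1 at 411 CPM and Col3a1 at 551 CPM.

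Keratinocyte-like cells held a set of collagens at low level. They held 93.7% of the UMIs of Col7a1, the anchoring fibril collagen, 83.0% of Col8a1, a short-chain collagen, 74.6% of Col23a1, a membrane-spanning collagen, and 55.8% of Col12a1. Almost all of this lay in 1 cluster, led by Pappa, Grip1 and Tenm4. It held 370 of 3685 keratinocyte-like cells (10.0%) but 67.4% of the class's UMIs and 94.4% of its collagen UMIs. Its median depth was 22411 UMIs, against 1021 to 2256 UMIs in the other keratinocyte-like clusters. Doublets among cells this deep were not tested, since doublet calling had not worked. Col3a1 stood at 0.18 CPM in the cluster and at 5746 CPM in fibroblast-like cells.

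In that cluster Col4a5 stood at 75.8, Col4a6 at 72.04, Col8a1 at 71.0, Col5a2 at 59.5, Col7a1 at 53.6 and Col18a1 at 46.1 CPM. Krt5 was found in 97.3% of its cells and Itga6 in 94.1%, and 9 basal and 9 suprabasal keratinocyte markers were raised in it, so it was assigned to neither layer. Finer clustering gave a Pappa-led cluster of 310 cells (9 basal, 6 suprabasal markers), with 62, 84, 127 and 37 cells per library. It also gave a deep cluster led by Krt4 and Krt13 (7 basal, 9 suprabasal), with 27, 16, 23 and 6. These are in the order healthy, metformin, disease, disease plus metformin. The part of such a mix in the values below was not tested. Summed over all collagens, the cluster held 374, 400.4, 520 and 520 CPM in the healthy, metformin, disease, and disease plus metformin libraries, with 86, 94, 148 and 42 cells. Here disease plus metformin did not stand below disease in sum.

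Gene by gene the cluster split. Col5a2 stood at 50.4, 49.5, 80.7 and 56.5 CPM in the healthy, metformin, disease, and disease plus metformin libraries, a log2 ratio of 0.68 (0.42 to 0.94) for disease over healthy and of -0.51 (-0.81 to -0.22) for disease plus metformin over disease. Col4a6, at 50.4, 68.1, 87.4 and 84.3 CPM, was 0.79 (0.54 to 1.06) above healthy in disease and within its interval of 0 between disease plus metformin and disease (-0.05, -0.31 to 0.20). Col7a1, at 49.2, 41.5, 59.8 and 80.8 CPM, and Col18a1, at 44.2, 39.7, 44.8 and 69.3 CPM, were highest in disease plus metformin, by 0.43 (0.16 to 0.71) and 0.63 (0.32 to 0.93) over disease. Col6a1 was lowest in the healthy library, at 6.47 CPM against 15.4, 16.6 and 19.4 CPM, with log2 ratios of 1.36 (0.67 to 2.10) for disease and 1.25 for metformin over healthy.

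**Figure D5:**
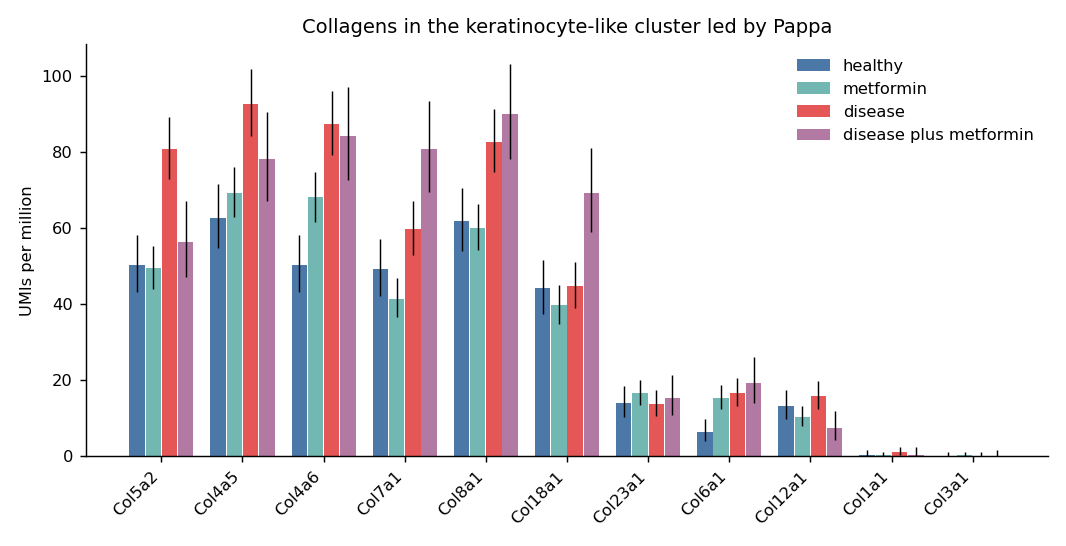
CPM of 11 collagen genes in the keratinocyte-like cluster led by Pappa, Grip1 and Tenm4; bars are libraries and lines exact Poisson 95% intervals. Col5a2 peaks in disease at 80.7 CPM, Col7a1 and Col18a1 peak in disease plus metformin at 80.8 and 69.3 CPM, and Col1a1 and Col3a1 stay near 0.

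Type VI collagen forms beaded filaments around cells from Col6a1, Col6a2 and another, longer chain. Over all cells Col6a1 stood at 10.4, 17.1, 27.8 and 6.59 CPM, Col6a2 at 10.5, 12.0, 18.4 and 2.75 CPM and Col6a3 at 5.25, 7.64, 11.4 and 1.67 CPM in the healthy, metformin, disease, and disease plus metformin libraries. Fibroblast-like cells held 58.6%, 74.5% and 86.0% of them. In fibroblast-like cells the Col6a3 to Col6a1 ratio was 0.62 (0.54 to 0.71), and in keratinocyte-like cells it was 0.015 (0.004 to 0.038), from 4 and 273 UMIs. Keratinocyte-like cells thus had UMIs of Col6a1 and almost none of Col6a3. Col6a6, an alternative to Col6a3, had 8, 42, 38 and 1 UMIs, of which 94.4% lay in fibroblast-like cells. Col6a5 had 1 to 4 UMIs per library and Col6a4 0 to 4.

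Fibril-associated collagens lie on the surface of fibrils. Col14a1 stood at 8.38, 9.90, 24.8 and 3.25 CPM, with 89.2% in fibroblast-like cells, and its disease level was the highest by a log2 ratio of 1.57 (1.23 to 1.92) over healthy. Col12a1 stood at 6.90, 7.59, 11.2 and 2.92 CPM and Col16a1 at 5.16, 5.49, 11.7 and 5.17 CPM. Col16a1 was spread over classes, and 41.8% of it lay in unnamed clusters.

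Most of that came from a cluster of 166 cells led by Ltf, Cnn1 and Wfdc18, which carries contractile genes of myoepithelial cells beside keratinocyte markers and therefore stayed unnamed. In it Col4a1 stood at 186.5, Col4a6 at 123, Col4a5 at 110, Col4a2 at 100.5 and Col16a1 at 68.8 CPM. It was the only cluster of over 20 cells with both the Col4a1 and the Col4a6 chain above 100 CPM. Col9a3, a fibril-associated collagen best known from cartilage, had 5, 12, 48 and 13 UMIs in the healthy, metformin, disease, and disease plus metformin libraries, and 49 of the 78 lay in this cluster. The cluster itself held 23, 28, 75 and 40 cells in these libraries. The part of these cell numbers in the Col9a3 and Col16a1 values was not tested.

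Gland-like cells held 77.4% of the UMIs of Col20a1, with 5.80, 3.28, 5.51 and 5.76 CPM over all cells of the healthy, metformin, disease, and disease plus metformin libraries. Disease over healthy was -0.07 (-0.58 to 0.44) and disease plus metformin over disease 0.06 (-0.44 to 0.56), with no difference detectable over all cells. Metformin over healthy was -0.82 (-1.34 to -0.30). Gland-like cells held 48.0%, 31.0%, 29.7% and 57.8% of all UMIs in these libraries, and the part of this in the ratios was not tested. Within gland-like cells, fibril-associated collagens, with 206 of 256 UMIs from Col20a1, stood at 9.01, 11.3, 15.1 and 12.1 CPM in the same order. Schwann-like cells, the glia of nerves, held 86.1% of Col28a1, which surrounds nerve fibres, with 7, 20, 74 and 14 UMIs per library. These were 4, 15, 20 and 7 cells, and 1 barcode held 54.1% of the UMIs in disease. The 46 Schwann-like cells also had Col3a1 at 946 CPM and Col5a2 at 447 CPM, the highest levels outside the fibroblast-like class.

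Below 50 UMIs in all, Col25a1 had 3 to 12, Col26a1 0 to 3, Col19a1 3 to 29, Col9a2 0 to 20, Col4a3 2 to 6 and Col8a2 1 to 11 UMIs per library. Col9a1 had 0 to 2 and Col10a1, the collagen of hypertrophic cartilage, 0 to 1. Col22a1 had 0 UMIs in every library, which allows up to 3. In the disease library all 5 Col25a1 UMIs lay in 1 barcode.

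Genes that modify, export, cut, cross-link and bind collagen were followed in 7 lists with 75 genes. These lists, like the collagens, were chosen with earlier results of these data known. The shares of all measured genes beside which these counts stand are 15.3% for at least 1.5-fold higher in disease and 24.7% for at least 1.5-fold lower in disease plus metformin. Of 10 measured fibril assembly genes, 8 lay above healthy gingiva in disease by 1.5-fold or more, and 9 lay below disease in disease plus metformin. Of 4 measured cross-linking enzymes, 3 were higher in disease by 1.5-fold or more, and 3 of 5 were lower by as much in disease plus metformin, against 15.3% and 24.7% of all genes. Loxl1, a lysyl oxidase with 93.2% of its UMIs in fibroblast-like cells, stood at 3.22, 5.54, 8.59 and 1.085 CPM in the healthy, metformin, disease, and disease plus metformin libraries. Loxl2, its relative, stood at 4.14, 5.08, 7.88 and 1.00 CPM. Pcolce, which speeds the removal of the procollagen tail, stood at 8.10, 14.4, 17.4 and 3.50 CPM, and its relative Pcolce2 at 16.9, 11.4, 16.5 and 4.00 CPM.

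Genes of export and folding were counted in the same way. Of 7 export genes, 0 passed 1.5-fold in either direction in disease and 1, Mia3, was higher in disease plus metformin, at 264 CPM against 153 in disease. Of all measured genes, 15.3% were that much higher and 6.31% lower in disease, and 8.38% were higher in disease plus metformin. With 7 genes, these counts cannot be set apart from those shares. Mia3 and Sec24d load procollagen into transport vesicles, and only 0.82% and 2.75% of their UMIs lay in fibroblast-like cells. Of 18 measured genes of folding and hydroxylation, 4 passed 1.5-fold upward in disease and 7 downward in disease plus metformin, against 15.3% and 24.7% of all genes. Serpinh1, the collagen chaperone, stood at 39.4, 63.4, 85.0 and 35.6 CPM over all cells, but within fibroblast-like cells at 609, 889, 842 and 894 CPM, so it was not low in the 8 cells of the disease plus metformin library. Ppib, a helix-folding isomerase made in most cells, stood at 626, 656, 644 and 780 CPM.

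Partners of the basement membrane were lower throughout in disease plus metformin, with 13 of 13 measured genes at least 1.5-fold below disease, while 8 of 14 were that much above healthy in disease, against 24.7% and 15.3% of all genes. Lama2, a laminin chain of mesenchymal cells, stood at 7.92, 16.4, 27.3 and 3.42 CPM and Lamc1, a chain shared by most laminins, at 20.5, 20.0, 29.85 and 14.85 CPM. Of the collagen receptors, 3 of 8 were at least 1.5-fold higher in disease and 3 of 7 that much lower in disease plus metformin, beside the same shares of 15.3% and 24.7% of all genes. Ddr2, the fibroblast collagen receptor, stood at 4.14, 4.26, 5.99 and 1.502 CPM, and Itgb1, the shared integrin chain, at 120, 126, 178 and 129 CPM.

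Decorin and Sparc, which bind collagen fibrils, did not share its source. Of 38589 Dcn UMIs, 22890 lay in keratinocyte-like cells and 37.1% in fibroblast-like cells. Its level was 913 CPM in the former and 16593 CPM in the latter, whereas Col3a1 stood at 0.64 and 5746 CPM there. The Dcn UMIs of keratinocyte-like cells were therefore not accompanied by those of the main fibroblast collagens. Sparc had 28.2% in fibroblast-like cells and was also high in Schwann-like (6452 CPM) and endothelial-like cells (2147 CPM).

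On the mouse genome (GRCm38, GENCODE M21) several collagens that were counted together are neighbours. Col4a1 (chromosome 8, 11198423 to 11312826, minus strand) and Col4a2 (chromosome 8, 11312805 to 11449287, plus strand) are transcribed away from each other, and their starts overlap by 22 bases. Col4a6 (chromosome X, 141165403 to 141474076, minus strand) and Col4a5 (chromosome X, 141475385 to 141689234, plus strand) also run apart, with 1308 bases between them. Col3a1 (chromosome 1, 45311538 to 45349706, plus strand) lies 24614 bases from Col5a2 (chromosome 1, 45374321 to 45503282, minus strand). The level of Col5a2 was 725 CPM in fibroblast-like and 42.02 CPM in keratinocyte-like cells, so both genes were highest per UMI in fibroblast-like cells. The type I genes are on separate chromosomes, Col1a1 on 11 (94936224 to 94953042) and Col1a2 on 6 (4504814 to 4541544), both on the plus strand, and Col7a1 is on chromosome 9 (108953586 to 108984875, plus strand).

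The 150 bases before the start of 3 genes with opposite sources are shown from RefSeq (GRCm38.p6), to set a fibroblast gene beside 2 keratinocyte genes. Capitals mark a match on either strand to the TATA box TATAAA, the CCAAT box or the GC box GGGCGG. No annotated exon lies in these windows, which are Col3a1 at chr1:45311388-45311537 (plus strand), Col7a1 at chr9:108953436-108953585 (plus strand) and Col4a6 at chrX:141474077-141474226 (minus strand, printed as transcribed).
Col3a1: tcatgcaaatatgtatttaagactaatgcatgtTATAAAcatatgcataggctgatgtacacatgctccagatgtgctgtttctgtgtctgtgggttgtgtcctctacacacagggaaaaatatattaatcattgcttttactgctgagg
Col7a1: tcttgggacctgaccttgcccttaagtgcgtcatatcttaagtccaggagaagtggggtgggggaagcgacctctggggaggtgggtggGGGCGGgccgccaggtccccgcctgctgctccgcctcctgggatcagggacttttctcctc
Col4a6: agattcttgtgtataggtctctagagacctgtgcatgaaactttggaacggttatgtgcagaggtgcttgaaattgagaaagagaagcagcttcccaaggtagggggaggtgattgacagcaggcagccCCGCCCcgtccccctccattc

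The Col3a1 window was 37.3% G and C and held 1 TATAAA, 117 bases before the start. The Col7a1 window was 64.0% G and C with 1 GGGCGG, 61 bases before the start, and the Col4a6 window was 52.0% with 1 GGGCGG on the opposite strand, 21 bases before it. Over 250 bases before the start, RefSeq promoters were found for 34 of the 43 chains. GGGCGG on either strand was in 22 of their 37 windows, against 32.7% of all 32851 windows. TATAAA was in 4, against 12.4% of all, and CCAAT in 12, against 33.8%. These matches describe letters in a window and were not tied to any measured level.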

How the data were processed

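The deposited files hold raw UMI counts per gene and cell barcode for 4 libraries, which the authors made with bcl2fastq and Cell Ranger 7.0.1 on mm10, per the submitters' processing notes. The kit end and the intron setting are not given in the sources used here. Rows sharing a symbol were summed. Barcodes under 200 genes or above 20% mitochondrial UMIs were dropped, as were Scrublet calls. Cells were clustered with scanpy 1.11.5 and leidenalg 0.10.2 (2000 variable genes without collagens, 30 principal components, resolution 1) and named from marker lists, as X-like. The fibroblast cluster was split once more. Levels are CPM with exact Poisson 95% intervals, which are not scaled for gene length, and log2 ratios have exact conditional binomial intervals (scipy 1.17.1). The ratio step was tested on simulated data. Ratios need at least 20 UMIs over both libraries and at least 20 cells in each. Genes with at least 50 UMIs in all were described by name, as were rarer members by their range. The members and lists were chosen with earlier results of these data known. Fewer cells of a type and less RNA per cell cannot be told apart in sums over all cells. Alternatives covered cell filters, scaling, equal weight per cell, cell naming, minimum UMIs, fold and single barcodes.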

Additional observations from a re-analysis of the deposited data

Results flagged for a closer look

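Some fibroblast collagens were lower with metformin in diseased gingiva and higher with metformin in healthy gingiva, over all kept cells. With 1 library per group the difference between these effects was not tested, and the libraries of all 4 groups enter it. Summed fibrillar collagen had a log2 ratio of -3.04 for disease plus metformin over disease and of 0.82 for metformin over healthy. The ratios in that order were -3.885 and 0.67 for Col1a1, -3.42 and 0.98 for Col1a2, and -3.45 and 0.94 for Col3a1. For the minor fibrillar genes they were -2.48 and 1.355 for Col5a3, -3.67 and 1.96 for Col11a1, and -2.15 and 2.53 for Col27a1. For other types they were -2.08 and 0.72 for Col6a1, -5.165 and 1.55 for Col6a6, and -2.07 and 0.95 for Col15a1. With every cell weighted equally, the ratios of metformin over healthy were -0.14 for Col1a1, 0.25 for Col1a2, 0.53 for Col3a1, 0.23 for Col5a3, 0.34 for Col6a1 and -0.50 for Col15a1, all under 1.5-fold upward, and 0.32 for summed fibrillar collagen. Col1a1 came to 0.34 without the top barcode of each library. Within fibroblast-like cells, metformin over healthy was -0.33 with cells picked by their own markers and 0.91 with the cluster not split. The share of fibroblast-like cells was 0.48% in disease plus metformin and 2.90% in disease, and 1.66% in metformin and 1.15% in healthy gingiva, and its part in these ratios was not tested.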

How the results depend on the processing

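Of 305 alternative values for single collagens past 1.5-fold, 303 kept their direction and 281 stayed past it. The exceptions in direction were Col15a1 (-0.50) and Col1a1 (-0.14) for metformin over healthy with every cell weighted equally. That setting moved the summed fibrillar ratio to 1.16 for disease over healthy, -3.24 for disease plus metformin over disease and 0.32 for metformin over healthy, and basement membrane collagen to 0.72 in the first and -0.36 in the third. Leaving genes above 0.5% of any library out of the total gave 1.13, -2.90 and 0.70 for fibrillar and 0.87, -0.81 and 0.10 for basement membrane collagen. Stricter cells (500 genes, 10% mitochondrial UMIs) gave fibrillar ratios of 1.43 for disease over healthy and 0.92 for metformin over healthy, and leaving out the top barcode gave -3.225 for disease plus metformin over disease. The number of collagens lower in disease than in healthy was 2 with equal cells, 7 with a minimum of 1 UMI and 0 with 100 UMIs. The number higher in disease plus metformin than in disease was 5 with 1 UMI, 0 with 100 UMIs and 0 at a fold of 2. With metformin over healthy, 5 were higher with equal cells, 5 with 100 UMIs and 7 at a fold of 2, and 5, 1 and 1 were lower in these settings and 6 with 1 UMI. Shares over all genes were not computed in these changed settings, so whether these counts exceed such shares is not known. In endothelial-like cells, basement membrane collagen in disease over healthy came to -0.33 with equal cells and -0.57 without the top barcode, and disease plus metformin over disease to 0.27 by own markers and 0.27 without it. Metformin over healthy there came to -0.13 with equal cells, 0.15 without the top barcode and 0.16 without cells holding a lymphatic marker, an alternative chosen after seeing the data. The causes were not tested. No ratio was formed within the fibroblast-like class as clustered, since 2 libraries hold fewer than 20 such cells, and the ratios for cells picked in other ways stand in the report. No paired analysis was possible because each group is 1 library.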
